A study of Arabidopsis thaliana with 8 samples.

Results

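The genes described here are 10 UDP-dependent glucosyltransferases of Arabidopsis thaliana, UGT73C1 to UGT73C6 and UGT73B2 to UGT73B5, out of 29920 loci measured. They were chosen by name as 2 related subfamilies, with their differences between rml1 and wild type in shoots and roots already known, so these differences are given as a description and without a test. All 10 loci were found. Their levels were measured on 8 tiling arrays of 7-day-old seedlings on vertical plates with 1 mM KNO3: 3 arrays of rml1 shoots (pools of 61, 65 and 108 shoots), 3 of wild type Columbia-0 shoots (30 each), 1 of rml1 roots (234 roots) and 1 of wild type Columbia-0 roots (90 roots). The root meristemless1 (rml1) mutant is defective in GSH1, the ligase that joins glutamate and cysteine on the way to glutathione, and its seedlings fail to sustain root growth. The labels give Columbia-0 as the ecotype of the wild type samples and name none for rml1. Levels are RMA values on the log2 scale, on which a difference of 1 is a 2-fold difference, and precision is limited by how few arrays there are. In pooled organs, fewer cells of a type and less RNA per cell cannot be told apart.

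Family 1 glycosyltransferases of plants, called UGTs, move a sugar from a UDP-sugar to small molecules such as flavonols, hormones and foreign compounds. A sugar makes the acceptor more soluble and often less active, and conjugates can be stored in the vacuole, a route that runs beside conjugation with glutathione. Several members of the UGT73B and UGT73C subfamilies are known as genes induced by pathogens, oxidative stress or toxic chemicals.

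Organ markers separated the root from the shoot arrays. RCA, the activase of Rubisco, had 8.13 in the rml1 root and 7.61 in the wild type root, while the shoot arrays lay between 12.18 and 12.52. ESB1, a protein of the Casparian strip, had 8.01 in the rml1 root and 9.84 in the wild type root, while the shoot arrays lay between 5.39 and 6.58. The lower quartile of the loci on an array lay between 2.14 and 2.37 and the median between 3.84 and 3.98.

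UGT73C1 to UGT73C6 lie side by side in the gene order of the RefSeq table, in the order UGT73C1, UGT73C2, UGT73C4, UGT73C3, UGT73C6 and UGT73C5. UGT73B3 and UGT73B2 adjoin each other and UGT73B1, and UGT73B5 adjoins UGT73B4. The annotated spans of UGT73B4 and UGT73B5 overlap. Probes in such clusters can respond to more than 1 gene, and the assignment of probes to genes is not given in the sources used here. The 10 genes had 11 table entries, and 0 of these had values identical to those of any other entry. Entries that share some probes need not have identical values, so this count cannot show whether probes are shared.

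All 4 UGT73B genes were higher in rml1 than in wild type shoots, by 2.08-fold to 7.64-fold. UGT73B2 (AT4G34135), a glucosyltransferase of flavonoids, had 7.76, 7.06 and 7.67 in rml1 shoots, against 4.57, 4.40 and 4.72 in wild type shoots. The lowest rml1 array was far above the highest wild type array, and the difference of 2.93 (SE 0.19, log2) was the largest of the 10 genes. UGT73B4 (AT2G15490), which conjugates breakdown products of the explosive TNT, had 5.48, 4.75 and 5.45 in rml1 shoots, against 2.63, 2.87 and 3.09 in wild type shoots (mean of its 2 table entries). Its groups did not overlap either, with a difference of 2.36 (SE 0.22), and the entries taken singly differed by 2.51 and 2.21. The lower entry had 2.01, 2.12 and 2.29 in wild type shoots, each below the lower quartile of its array.

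UGT73B5 (AT2G15480) and UGT73B3 (AT4G34131) are both linked to resistance against the bacterium Pseudomonas syringae. UGT73B5 had 5.37, 5.29 and 5.51 in rml1 shoots, against 3.75, 3.32 and 4.20 in wild type shoots, a difference of 1.63 (SE 0.21). UGT73B3 had 4.29, 3.89 and 4.23 in rml1 shoots, against 3.19, 2.80 and 3.25 in wild type shoots, a difference of 1.05 (SE 0.16). In both genes every rml1 array was above every wild type array, and the gap between the groups was narrower than for UGT73B2.

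The UGT73C genes were less uniform, with 4 higher in rml1 shoots and 2 low in both genotypes. UGT73C1 (AT2G36750), which can glucosylate cytokinins in vitro, had 5.64, 5.06 and 5.41 in rml1 shoots, against 3.49, 3.37 and 3.20 in wild type shoots, a difference of 2.02 (SE 0.16). UGT73C5 (AT2G36800), also called DOGT1, glucosylates the fungal toxin deoxynivalenol and inactivates brassinosteroids. It had 8.50, 8.18 and 8.59 in rml1 shoots, against 6.92, 6.50 and 6.48 in wild type shoots, a difference of 1.79 (SE 0.16). Neither gene showed any overlap between the genotypes.

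UGT73C6 (AT2G36790), a glucosyltransferase of flavonols that also acts on brassinosteroids, had 7.22, 6.88 and 6.92 in rml1 shoots, against 6.40, 5.72 and 6.05 in wild type shoots. Its difference of 0.95 (SE 0.18), a 1.93-fold difference, was the smallest among the 8 genes with separated groups. UGT73C3 (AT2G36780) had 2.84, 2.80 and 4.12 in rml1 shoots, against 1.62, 2.27 and 1.84 in wild type shoots. Its rml1 replicate 3 stood above the other two, its wild type values were below the lower quartile of their arrays, and its difference of 1.34 (SE 0.36) was 0.91 without that replicate.

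UGT73C2 and UGT73C4 were low in all shoots. UGT73C2 (AT2G36760) had 2.08, 2.06 and 1.85 in rml1 shoots, against 2.01, 2.25 and 2.31 in wild type shoots, a difference of -0.19 (SE 0.12). UGT73C4 (AT2G36770) had 2.95, 2.78 and 2.59 in rml1 shoots, against 2.56, 2.52 and 2.68 in wild type shoots, a difference of 0.19 (SE 0.12). The groups of both genes overlapped. These low genes lie between UGT73C1 and UGT73C3 in the tandem row, whose levels did differ.

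**Figure D1:**
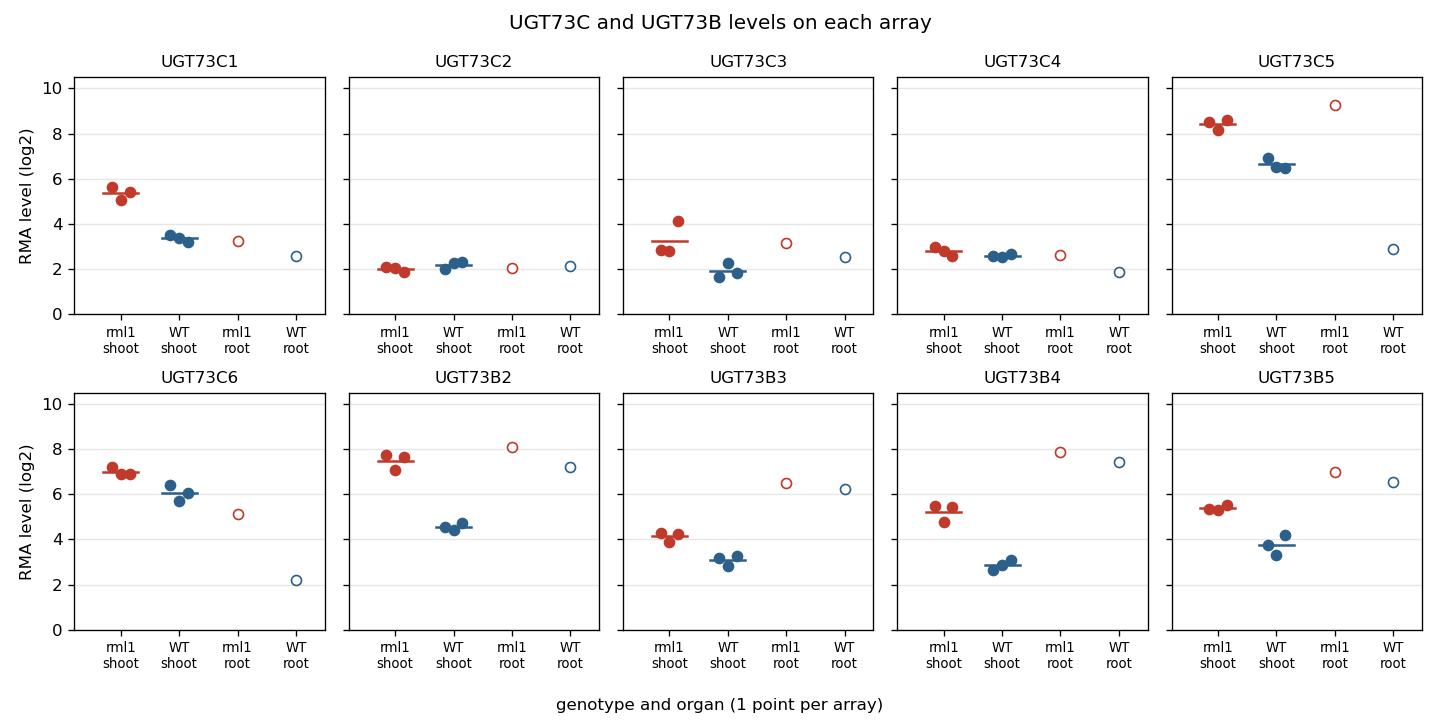
Levels of the 10 glucosyltransferases on each of the 8 arrays (vertical axes, RMA values on the log2 scale; filled points, shoot arrays; open points, root arrays; red, rml1; blue, wild type; lines, means of 3 arrays). The rml1 shoots lie above the wild type shoots in 8 panels, UGT73C2 and UGT73C4 are the exceptions, and UGT73C5 stands at 9.28 in the rml1 root and 2.90 in the wild type root.

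All 3 rml1 arrays were above all 3 wild type arrays for 8 of the 10 genes and for 21.9% of all loci. The median difference was 1.49 over the 10 genes and -0.03 over all loci. Because the genes were chosen with this contrast in view, nothing is read from this share.

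Within rml1 shoots, replicate 2 had the lowest value of the 3 arrays for 8 of the 10 genes, while it was lowest for 34.1% of all loci. The mean profile of the genes, each centred on its own mean, was 0.70, 0.37 and 0.72 in the rml1 shoot arrays, against -0.80, -0.91 and -0.73 in the wild type shoot arrays. The spread within each genotype was smaller than the gap between them. As the genes were chosen with this contrast in view, nothing is read from that gap.

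Between the root arrays UGT73C5 differed most. It had 9.28 in the rml1 root and 2.90 in the wild type root, a difference of 6.38 (83.2-fold), which ranked 2 among all 29920 loci for the excess of rml1. The wild type value lay between the lower quartile (2.30) and the median (3.98) of its array, so the fold is uncertain. UGT73C6, next to it in the tandem row, had 5.13 in the rml1 root and 2.21 in the wild type root, a difference of 2.92 (rank 155), and its wild type value was below the lower quartile. With 1 array per genotype there is no replicate check of the root differences.

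The other 8 genes differed by less than 1 log2 unit between the root arrays. UGT73B2 had 8.11 in the rml1 root and 7.21 in the wild type root, and UGT73C4 had 2.63 in the rml1 root and 1.85 in the wild type root. UGT73C1 had 3.25 in the rml1 root and 2.59 in the wild type root, although its shoot difference was among the larger ones. UGT73C3 had 3.16 in the rml1 root and 2.54 in the wild type root. UGT73B4, UGT73B5 and UGT73B3 were high in both roots. UGT73B4 had 7.87 in the rml1 root and 7.41 in the wild type root. UGT73B5 had 7.00 in the rml1 root and 6.54 in the wild type root, and UGT73B3 had 6.49 in the rml1 root and 6.24 in the wild type root. UGT73C2 was low in both, with 2.04 in the rml1 root and 2.13 in the wild type root.

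A difference of at least 1 log2 unit in favour of the rml1 root was found for 2 of the 10 genes and for 5.25% of all loci, and nothing is read from this share either. The median root difference was 0.64 over the 10 genes and -0.01 over all loci. The root arrays also differed in organ markers. RBCS1A, a small subunit of Rubisco, had 10.99 in the rml1 root and 9.39 in the wild type root. All 3 measured shoot markers were higher in the rml1 root, and 4 of 5 root markers were lower there, such as PER39, a peroxidase, with 6.24 in the rml1 root and 8.50 in the wild type root. The part of tissue composition in the root differences was not tested.

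**Figure D2:**
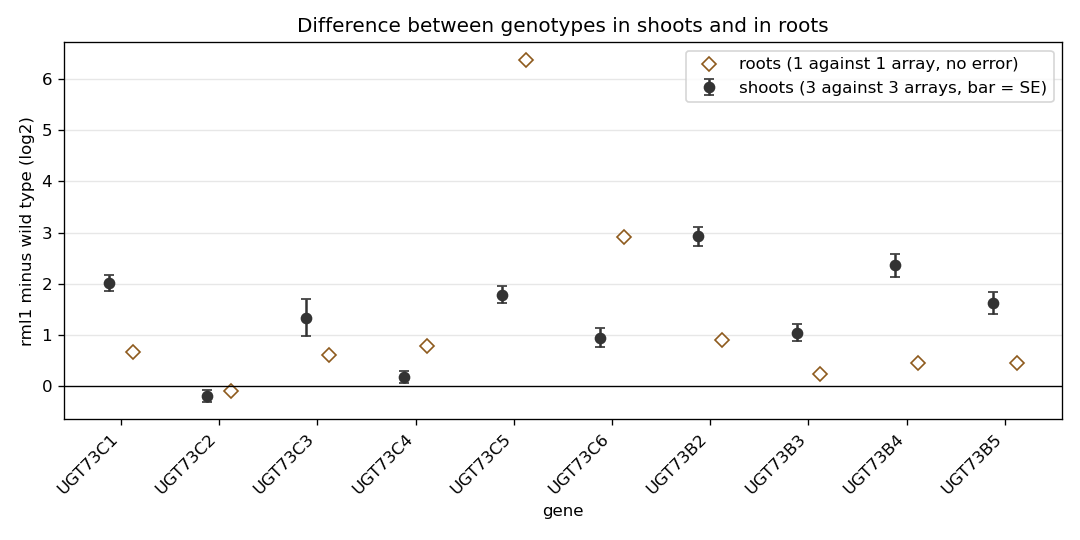
Difference between rml1 and wild type (vertical axis, log2 units) for each gene in shoots (filled points with standard errors, 3 against 3 arrays) and in roots (open diamonds, 1 against 1 array, with no error). The UGT73B genes and UGT73C1 show larger differences in shoots, with 0.90 in roots against 2.93 in shoots for UGT73B2, whereas UGT73C5 and UGT73C6 show larger differences in roots, with 6.38 in roots against 1.79 in shoots for UGT73C5.

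The difference between organs was not used to choose the genes. It was tested with limma over all 8 arrays (called at adjusted p under 0.05), with organ and genotype as additive terms, so that a genotype effect that differs between organs adds to the error. All 4 UGT73B genes were higher in roots, where 23.7% of all loci were called higher. UGT73C1 and UGT73C6 were lower in roots, where 15.2% of all loci were called lower, and the other 4 UGT73C genes were not called.

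UGT73B4 averaged 7.64 in the root arrays and 4.05 in the shoot arrays, the largest organ difference among the 10 genes (log2 3.60, SE 0.40, adjusted p = 0.000221). UGT73B3 averaged 6.36 in roots and 3.61 in shoots (log2 2.75, SE 0.21, adjusted p = 2.88e-05). Both root arrays were above all 6 shoot arrays for each of these genes. UGT73B5 averaged 6.77 in roots and 4.57 in shoots (log2 2.20, SE 0.30, adjusted p = 0.000607). UGT73B2 averaged 7.66 in roots and 6.03 in shoots (log2 1.63, SE 0.41, adjusted p = 0.0149). The call of UGT73B2 was lost with array weights (adjusted p = 0.071) and without the genotype term (adjusted p = 0.3), and its wild type root value of 7.21 lay within the range of the rml1 shoots.

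UGT73C6 averaged 3.67 in roots and 6.53 in shoots (log2 -2.86, SE 0.40, adjusted p = 0.000719), and both root arrays were below all shoot arrays. UGT73C1 averaged 2.92 in roots and 4.36 in shoots (log2 -1.44, SE 0.29, limma adjusted p = 0.00504). Without the genotype term this call was not made (adjusted p = 0.186), and the rml1 root value of UGT73C1, 3.25, lay within the range of the wild type shoots. UGT73C5 averaged 6.09 in roots and 7.53 in shoots, the same log2 difference of -1.44 with a larger error (SE 0.84, adjusted p = 0.227). The organ difference of UGT73C5 ran in opposite directions in the genotypes. Relative to the mean of the shoots of its genotype, the root stood at 0.86 in rml1 and at -3.73 in wild type.

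Of the remaining genes, UGT73C4 averaged 2.24 in roots and 2.68 in shoots (log2 -0.44, SE 0.16, adjusted p = 0.0621), and it was called lower in roots after median centring (adjusted p = 0.0293), after quantile normalization (adjusted p = 0.0364) and without rml1 shoot replicate 3 (adjusted p = 0.0362). UGT73C3 averaged 2.85 in roots and 2.58 in shoots (adjusted p = 0.625), and UGT73C2 averaged 2.08 in roots and 2.09 in shoots (adjusted p = 0.973). Apart from UGT73C3 in rml1 shoot replicate 3, every value of these 3 genes was below the median of its array.

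**Figure D3:**
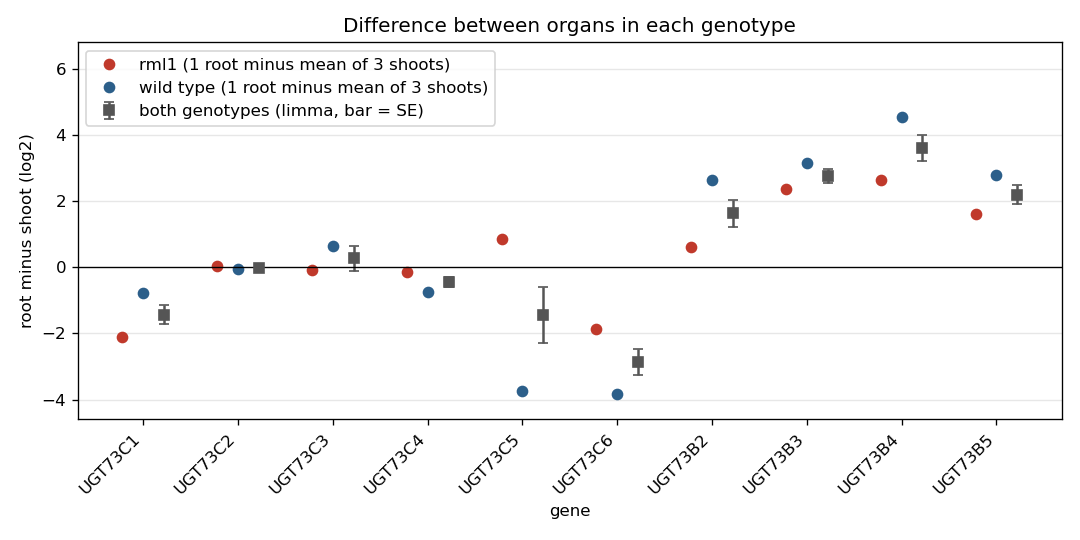
Root minus shoot difference (vertical axis, log2 units) of each gene in rml1 (red), in wild type (blue; in both, 1 root array minus the mean of 3 shoot arrays) and in the fit over both genotypes (squares with standard errors). The UGT73B genes lie above 0 in both genotypes, UGT73C1 and UGT73C6 lie below 0 in both, and UGT73C5 is at 0.86 in rml1 and -3.73 in wild type.

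The order of the groups by level therefore differed between genes. For UGT73B3, UGT73B4 and UGT73B5 the roots came first, then rml1 shoots, then wild type shoots, and the rml1 and wild type roots, with 0.25 to 0.46 between them, cannot be ordered from single arrays. For UGT73C6 the order was rml1 shoots, wild type shoots, rml1 root and wild type root. For UGT73C5 it was rml1 root, rml1 shoots, wild type shoots and wild type root.

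The UGT73B genes followed one another across the 8 arrays, with Pearson's r of 0.77 to 0.98 over their 6 pairs. The highest was that of UGT73B4 with UGT73B5, the pair with overlapping annotation. The 15 UGT73C pairs ranged from -0.70 to 0.92 with a median of 0.46. UGT73C5 and UGT73C6 had r = 0.80. The 24 pairs of a UGT73B with a UGT73C gene ranged from -0.63 to 0.80 with a median of -0.09. These correlations are descriptions, since all arrays share the same organs and genotypes.

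Of the loci that flank the clusters, SWC2 (AT2G36740), before UGT73C1, had a shoot difference of 0.41 (SE 0.08, limma adjusted p = 0.012), and AT2G36810, after UGT73C5, had 0.20 (SE 0.08, adjusted p = 0.132). In roots, AT2G36810 had 3.52 in rml1 and 3.49 in wild type. LEJ1 (AT4G34120), whose annotation overlaps that of UGT73B3, had a shoot difference of -0.02 (SE 0.09, adjusted p = 0.883). AT2G15500, after UGT73B4, had 0.16 (SE 0.17, adjusted p = 0.546). These 4 loci were picked by position after the values of the glucosyltransferases were seen.

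UGT73B1, UGT73C7 and UGT73D1 belong to the same phylogenetic group. UGT73B1 (AT4G34138), a flavonoid glucosyltransferase beside UGT73B2, had 6.39, 6.23 and 6.34 in rml1 shoots, against 5.98, 5.91 and 6.11 in wild type shoots. It rose by 0.32 (SE 0.09, limma adjusted p = 0.0481). This call did not hold in 9 of 14 alternatives, among them each left-out array, median centring (adjusted p = 0.0523) and quantile normalization (adjusted p = 0.204). In roots it had 5.82 in rml1 and 7.10 in wild type, the opposite direction.

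UGT73C7 (AT3G53160), linked to immunity and phenylpropanoid glycosylation, had 2.51, 2.69 and 2.87 in rml1 shoots, against 2.24, 2.96 and 2.38 in wild type shoots (log2 0.16, SE 0.20, adjusted p = 0.599). In roots it had 4.89 in rml1 and 2.55 in wild type, a difference of 2.34. UGT73D1 (AT3G53150) had 2.41, 2.52 and 2.09 in rml1 shoots, against 2.53, 2.99 and 2.85 in wild type shoots (log2 -0.45, SE 0.16, adjusted p = 0.0849). It was higher in roots than in shoots, with means of 4.87 and 2.56 (log2 2.31, SE 0.16, adjusted p = 1.56e-05).

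Across the other 56 loci that the gene table names as UGTs, 13 rose, 7 fell and 36 did not pass in shoots, which is 23.2% and 12.5%, against 13.3% and 10.6% of all loci. Their median difference was 0.06. UGT79B1, which adds xylose to anthocyanins, had the largest rise (mean 8.73 ± 0.25 in rml1 and 4.89 ± 0.76 in wild type shoots, SD, n = 3 each; 14.3-fold, limma adjusted p = 0.000621). UGT74E2, which glucosylates the auxin indolebutyric acid, averaged 8.83 ± 0.45 in rml1 and 5.06 ± 0.58 in wild type shoots (13.7-fold, limma adjusted p = 0.000521). UGT75B1 rose 4.40-fold, UGT84A3, which acts on sinapate and related acids, rose 3.6-fold, and UGT87A2, which affects flowering time, rose 2.83-fold.

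The largest falls were smaller. UGT71C2 averaged 3.53 ± 0.50 in rml1 and 4.87 ± 0.22 in wild type shoots (log2 -1.33, SE 0.25, limma adjusted p = 0.0085). UGT81A1, which makes galactolipids of plastid membranes, fell by 0.79 (SE 0.10), and UGT71C4 fell by 0.60 (SE 0.10). UGT85A3 and UGT85A5 fell by 0.62 each (SE 0.17 and 0.15), calls that were lost in 7 and 5 of 13 alternatives. In roots, UGT74E2 had 11.20 in rml1 and 7.43 in wild type, while UGT75B1 had 5.95 in rml1 and 5.86 in wild type.

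Related pathways and regulators were followed through 4 lists of genes, in which UGT74E2, UGT75B1, UGT78D1, UGT78D2 and UGT78D3 also count among the other UGTs. All 4 lists were chosen with earlier results of these data known, so their counts and shares in shoots and roots are descriptions only. Of 31 genes of chemical detoxification and oxylipin response, a group that includes glutathione S-transferases, aldo-keto reductases and cytochromes P450, 25 rose in shoots, against 13.3% of all loci, and 6 did not pass, with a median of 1.67. GSTU24 and GSTU25, tau-class glutathione S-transferases, led the list with rises of 4.55 (SE 0.34, limma adjusted p = 0.000331) and 3.94 (SE 0.44, limma adjusted p = 0.00122). In roots, 15 of the 31 differed by at least 1 log2 unit in favour of rml1, against 5.25% of all loci, with a median of 0.93. GSTU24 had 11.84 in the rml1 root and 9.96 in the wild type root. AT2G04050, a locus of this list picked after its values were seen, had a root difference of 5.55.

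TGA factors are basic leucine zipper proteins, and those of one class, with the GRAS protein SCL14, are known to activate detoxification genes. Of 12 TGA factors and partners, 4 rose, against 13.3% of all loci, and 8 did not pass in shoots, with a median of 0.18. TGA7 rose by 1.80 (SE 0.16, limma adjusted p = 0.000549) and TGA3 by 0.79 (SE 0.13, limma adjusted p = 0.00572). SCL14, named after its values were seen, rose by 0.53 (SE 0.10), and it had 6.32 in the rml1 root and 5.24 in the wild type root. The list was not split by class, and the next 5 factors are also named after their values were seen. TGA5 rose by 0.69 (SE 0.11), whereas TGA2 (0.20, SE 0.12) and TGA6 (0.27, SE 0.15) did not pass. TGA1 (-0.48, SE 0.15) and TGA9 (-0.39, SE 0.18) did not pass either, though every rml1 shoot array was below every wild type shoot array. Such separation was found for 2 of the 12 genes of this list and for 6053 of all 29920 loci. In 5 alternatives 1 or 2 members of this list fell.

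Of 12 genes of flavonol synthesis and glycosylation, 10 rose, against 13.3% of all loci, and 2 did not pass in shoots, with a median of 1.31. TT7, the flavonoid hydroxylase that makes quercetin precursors, averaged 7.61 ± 0.55 in rml1 and 4.98 ± 0.26 in wild type shoots (log2 2.63, SE 0.27, limma adjusted p = 0.000944). F3H, flavanone hydroxylase, rose by 2.01 (SE 0.23, limma adjusted p = 0.0013). In roots the list had a median of -1.20, and 6 of its 12 genes were lower in rml1 by at least 1 log2 unit, against 7.33% of all loci. F3H had 7.59 in the rml1 root and 9.71 in the wild type root, whereas UGT73C6, which uses flavonols, had 5.13 in rml1 and 2.21 in wild type.

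Of 16 genes of brassinosteroid synthesis, inactivation and signalling, the hormone class that UGT73C5 and UGT73C6 act on, 2 rose, 1 fell and 13 did not pass in shoots, with a median of 0.03. These shares of 12.5% and 6.25% were no higher than those of all loci, 13.3% rising and 10.6% falling. BR6OX2, which completes brassinolide synthesis, rose by 0.94 (SE 0.24, limma adjusted p = 0.0307), DET2, a steroid reductase, rose by 0.44 (SE 0.09, limma adjusted p = 0.0131), and CYP90D1, a cytochrome P450 of the pathway, fell by 0.43 (SE 0.11, limma adjusted p = 0.0274). Leaving out single arrays gave 0 to 2 rises and 0 to 1 falls, with neither left without rml1 shoot replicate 3. In roots BR6OX2 had 7.09 in rml1 and 5.58 in wild type.

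**Figure D4:**
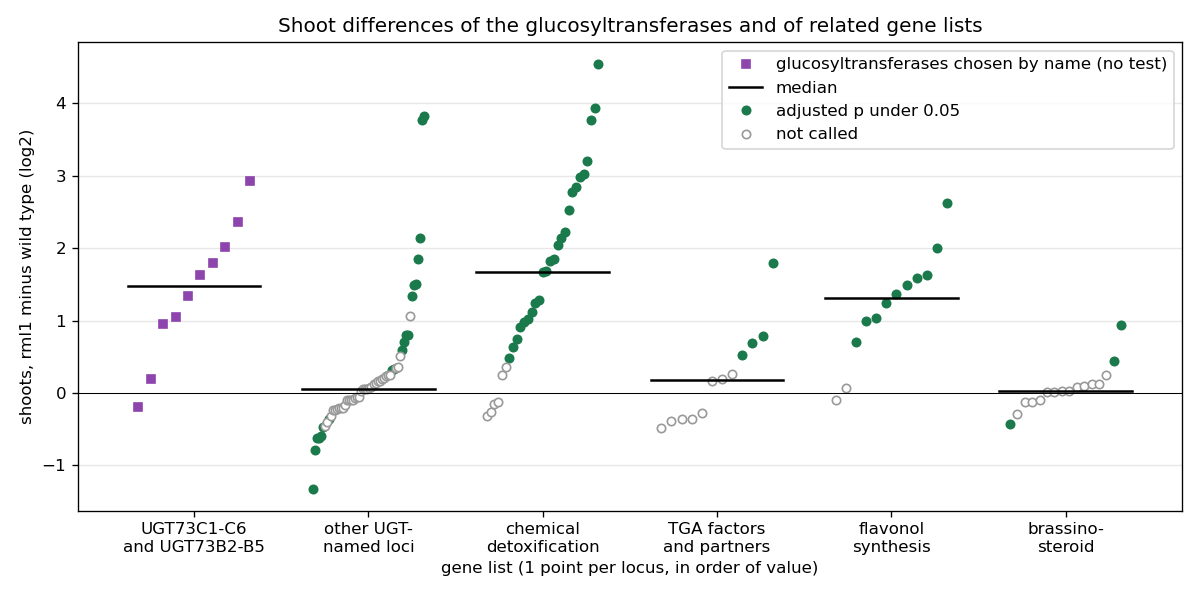
Shoot difference between rml1 and wild type (vertical axis, log2 units) of each locus, ordered by value, for the 10 glucosyltransferases (purple squares, no test), the other UGT-named loci and 4 gene lists (filled, limma adjusted p under 0.05; open, not called; lines, medians). Medians are 1.49 for the 10 genes, 0.06 for the other UGTs, 1.67 for detoxification, 0.18 for TGA factors, 1.31 for flavonol genes and 0.03 for brassinosteroid genes. The 10 genes and the 4 lists were chosen with earlier results of these data known.

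Loci outside the family were ranked by how closely their 8 values followed the mean profile of the 10 genes, which was 0.99 in the rml1 root and -0.35 in the wild type root. This mean joins unlike patterns, as pairs of a UGT73B with a UGT73C gene had a median r of -0.09. UGT73C5, with a root difference of 6.38, weighs most in the difference between its root values. A locus close to the mean need not resemble any single gene. Among 17670 loci above the array median on at least 1 array, ML3 (AT4G18120), a MEI2-like RNA-binding protein, was closest (Pearson's r = 0.996). It had 5.57, 5.37 and 5.69 in rml1 shoots, against 4.37, 4.38 and 4.46 in wild type shoots, and 5.96 in the rml1 root, against 4.87 in the wild type root. TH8, an h-type thioredoxin (r = 0.994), AT2G18193 (r = 0.994), AT5G08270 (r = 0.993) and AT4G32272 (r = 0.992) followed. TH8 had a root difference of 5.25 and AT2G18193 one of 4.04. As 626 loci reached r of 0.9, likeness over so few arrays is common, and it is given as a description.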

How the data were processed

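Expression was measured on Affymetrix Agronomics tiling arrays, 1 sample per array. The deposited values are on a log2 scale and come from RMA, which the submitters' processing notes name. The RMA version is not given in the sources used here, nor are genome build and probe assignment. No positions are printed. Entries of a locus (30237 for 29920 loci) were averaged. Names came from a RefSeq table of TAIR10.1, which matched 29398 loci, while the names UGT73C3 and UGT73C4 are those in general use.

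Groups follow the labels, which call the shoot samples biological replicates. Tests used limma 3.58.1 (R 4.3.3, lmFit and eBayes, two-sided, Benjamini-Hochberg over all 29920 loci, called at adjusted p under 0.05), checked on simulated data. Shoot fits used 6 arrays and organ fits 8. SE is the standard error of a log2 difference.

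The 10 genes and all lists were chosen with earlier results of these data known. The rule named all 10 genes, UGT73B1, UGT73C7 and UGT73D1, the 5 largest called rises and falls with separated groups among other UGTs, the 2 largest of each list in each direction, and the 5 loci most like the 10 genes. Other examples are marked in the text. Alternatives covered normalization, filters, eBayes options, array weights, table entries, the replicate block and left-out arrays. Figures were drawn with matplotlib 3.10.9.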

Additional observations from a re-analysis of the deposited data

Results flagged for a closer look

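The organ difference of UGT73C5 ran in opposite directions in the genotypes. The rml1 root, at 9.28, was above all 3 rml1 shoots, and the wild type root, at 2.90, was below all 3 wild type shoots, so that the root minus shoot difference was 4.59 higher in rml1 than in wild type. The difference between the genotypes was not tested, since each has 1 root array.

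Among the related genes, the genotype difference of some had one sign in shoots, with separated groups, and the other sign between the root arrays, again untested. The root difference minus the shoot difference (rml1 minus wild type) was -1.59 for UGT73B1, -3.21 for TT7, -4.13 for F3H, -0.96 for TGA3 and -0.90 for DET2, all of which rose in shoots. It was 1.49 for UGT71C2, 1.75 for UGT81A1 and 0.51 for CYP90D1, which fell in shoots. The root differences themselves were small for CYP90D1 (0.08), UGT71C2 (0.16), TGA3 (-0.17) and DET2 (-0.47), and single arrays cannot give these a direction. In UGT73B1, TT7 and F3H the root also lay below all shoots in rml1 and above all shoots in wild type.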

How the results depend on the processing

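The shoot differences of the 10 genes kept their direction and moved by less than the spread between replicates in every alternative run, except that the filter on low loci left out UGT73C2, UGT73C3, UGT73C4 and UGT73B3. As the genes were chosen on this contrast, this is a description. Without single arrays, 4508 (without rml1 shoot replicate 3) to 6480 loci were called in shoots, against 7138 with all arrays, and 4 to 6 other UGTs fell, against 7. The same-numbered shoot arrays did not deviate together (no correlation above 0, the lowest -0.10). These correlations gave no sign of pairing, but with 3 arrays per genotype they cannot show that the samples were unpaired. With the replicate number as a block 4 other UGTs fell. In the organ fit, array weights gave 6859 called loci, against 11656, and without the genotype term 1 of the 10 genes was lower in roots, against 2. The organ difference of UGT73C2, -0.01, was 0.02 under quantile normalization and ranged from -0.04 to 0.02 without single arrays, 4 of which turned its sign. The cause of these changes was not tested. By Spearman correlation 0 of the 5 most similar loci were the same, with 22 loci tied at the highest rho. The root differences changed by less than the shoot spread under both normalizations. Values of the 2 UGT73B4 entries taken singly, an alternative chosen after seeing the data, kept its direction and its organ call. The planned search of promoter motifs was not run. Signal near the low end of the scale limits UGT73C2, UGT73C3 and UGT73C4, and the lower entry of UGT73B4 in wild type shoots.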
